A study of Mus musculus with 6 samples.

Results

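Tumour cells carry surface proteins that T cells, natural killer (NK) cells and phagocytes read through dedicated receptors, and 10 genes for such proteins were followed here. They were Cd274 and Pdcd1lg2, which encode PD-L1 and PD-L2, the ligands of the inhibitory receptor PD-1 on T cells, and Cd276, which encodes the B7 family protein B7-H3. Pvr encodes CD155, a ligand of the activating receptor DNAM-1 and of the inhibitory receptors TIGIT and CD96. Ulbp1, Raet1d and Raet1e encode ligands of NKG2D, an activating receptor of NK cells and of some T cells. Cd47 and Cd24a encode signals that restrain phagocytes through SIRP alpha and Siglec receptors, and Nt5e encodes CD73, an enzyme that makes adenosine outside the cell. The genes were chosen by name, as the rows of the deposited table whose gene symbol equals one of the 10, and all 10 are among the 52636 genes of the table.

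RNA sequencing was done on the mouse colon tumour line MC38, in a derivative labelled M1E5 that all libraries share, with the treatment given as none. There were 3 libraries labelled Zfx F5, taken from cells in which Zfx, a zinc finger transcription factor gene of the X chromosome, was targeted with CRISPR ribonucleoprotein, and 3 libraries labelled WT. The design text speaks of cells grown in culture and the extract protocol of sorted tumour cells. F5 is the only edited line among these libraries, so a difference between it and WT that arose apart from the edit cannot be told apart from an effect of the edit. No label states that libraries with the same genotype were grown or extracted separately, so the spread behind every p-value may be technical.

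Zfx was higher where it had been targeted, with 2657, 2557 and 2777 reads in the libraries labelled Zfx F5, against 1505, 1315 and 1670 reads in WT. Gene-level counts do not show whether part of the gene is missing, so every direction below rests on the group labels as given. Depth was 19759239 to 22748778 reads in the libraries labelled Zfx F5, against 18876673 to 24241864 reads in WT. Of 8 markers of intestinal epithelium, Epcam, Krt19 and Krt20 were listed at 0 reads in all 6 libraries, and the list summed to 3.80 to 4.13 CPM (reads scaled to a library total of 1000000) in the libraries labelled Zfx F5, against 0.636 to 1.07 CPM in WT. Cdh1 had 45, 39 and 50 reads in the libraries labelled Zfx F5, against 22, 10 and 26 reads in WT. Krt8 had 39, 34 and 41 reads in the libraries labelled Zfx F5, against 0 reads in every WT library. Krt18, Cdx2 and Vil1 had at most 2 reads in any library. Markers of T and NK cells summed to 0.101 to 0.283 CPM in the libraries labelled Zfx F5, against 0 to 0.0530 CPM in WT. The pan-leukocyte gene Ptprc and the killing genes Gzmb, Prf1 and Nkg7 had at most 1 read in any library. Cd3d had 4, 1 and 2 reads in the libraries labelled Zfx F5, against 0 reads in every WT library. Cd3e had 2 reads and Cd3g 1 read over the libraries labelled Zfx F5, and both had 0 in WT. Markers of myeloid and B cells summed to 27.7 to 30.3 CPM in the libraries labelled Zfx F5, against 12.3 to 14.9 CPM in WT. Of 12 rows 4 were tested, and 2 were higher (37% over all tested genes), while 2 did not pass. In that list Adgre1 and Tyrobp were at 0 reads, while Lyz2, which encodes a lysozyme, had 305, 320 and 351 reads in the libraries labelled Zfx F5, against 5, 9 and 15 reads in WT. Fcgr3 was the other higher gene. Endothelial and fibroblast markers summed to 179 to 186 CPM in the libraries labelled Zfx F5, against 398 to 409 CPM in WT, with Pecam1 and Pdgfrb higher and Dcn and Pdgfra lower. In bulk RNA, fewer cells of a type and less RNA per cell cannot be told apart. What these marker differences contribute to the ligand results was not tested.

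Of the 10 ligand genes, 4 had enough reads to be tested and all 4 differed between the groups. PD-L1 mRNA (Cd274) rose, and the mRNAs of CD155 (Pvr), of the NKG2D ligand MULT1 (Ulbp1) and of CD47 fell. The other 6 genes were at or near 0: Pdcd1lg2, Nt5e and Cd24a were listed at 0 reads in all 6 libraries, and Cd276, Raet1d and Raet1e had 0 to 14 reads per library. Tests used limma, a linear model fitted to all 12279 genes whose log2 value averaged at least 0 over the 6 libraries, with Benjamini-Hochberg adjustment and a threshold of 0.05. Differences were common in this comparison. Of all tested genes, 72.9% passed the threshold, 37% higher and 35.9% lower, and for 74.3% (likewise for all 4 ligand genes) the values of the groups did not overlap. Only 10.1% passed with a difference of at least 2-fold, and Cd274 and Pvr were among them. The median absolute log2 difference was 0.69 over the 4 tested ligand genes and 0.31 over all tested genes. In size of difference Cd274 ranked at 967 and Pvr at 1187 of 12279 genes, whereas Ulbp1 ranked at 5619 and Cd47 at 7064.

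**Figure D1:**
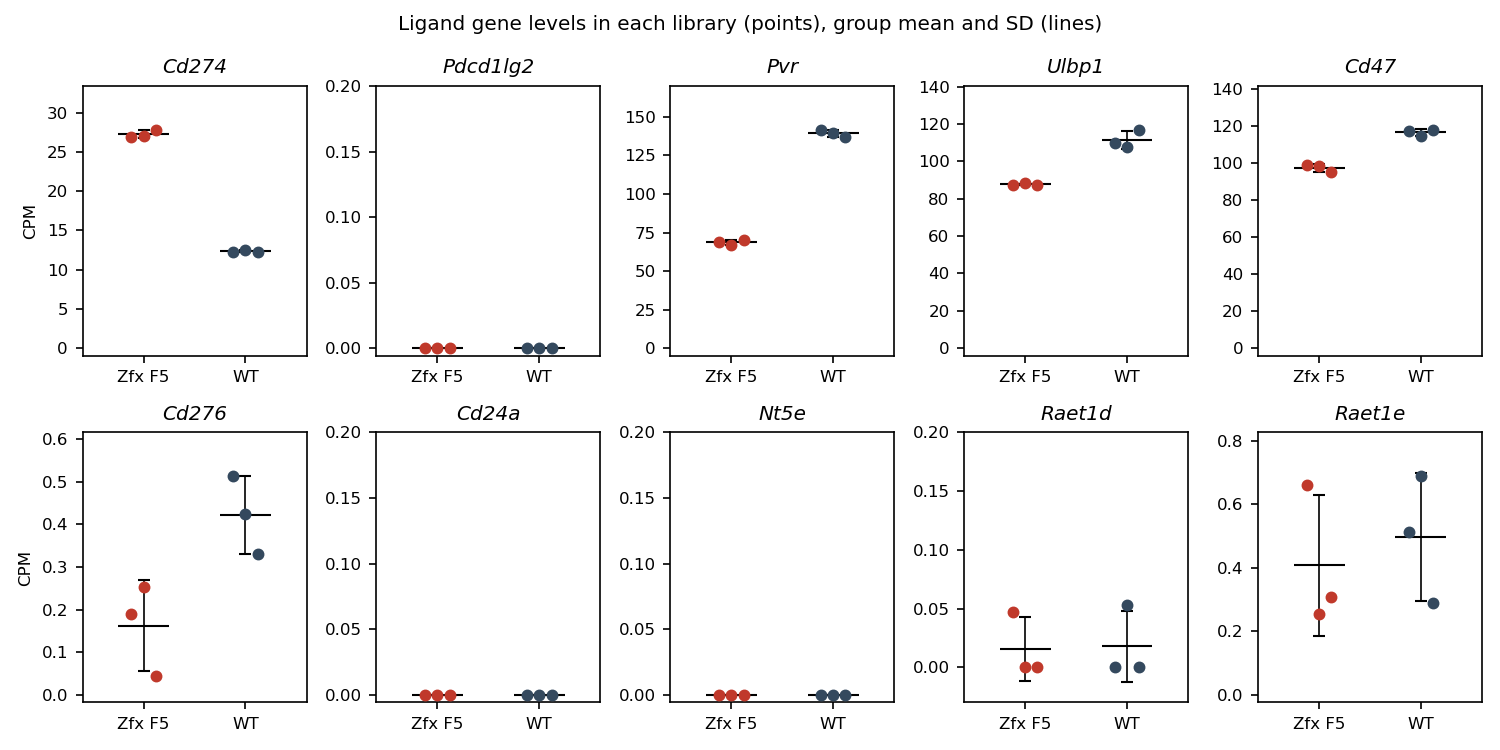
Level of each of the 10 ligand genes in CPM (vertical axes, each with its own scale), with points for the 3 libraries labelled Zfx F5 on the left and the 3 WT libraries on the right of every panel, and lines for the group mean and its SD. Cd274 lies higher and Pvr, Ulbp1 and Cd47 lie lower in the libraries labelled Zfx F5 without overlap, while Pdcd1lg2, Cd24a and Nt5e sit at 0.

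PD-L1 binds PD-1 on T cells and dampens their activation, and tumour cells are known to raise it in response to interferon gamma through JAK kinases and the transcription factor IRF1. Cd274 (ENSMUSG00000016496) had 571, 533 and 633 reads in the libraries labelled Zfx F5, against 287, 237 and 297 reads in WT. Every library labelled Zfx F5 was above every WT library. As levels these were 26.9, 27.0 and 27.8 CPM in the libraries labelled Zfx F5, against 12.3, 12.6 and 12.3 CPM in WT, so libraries of a group lay within 1 CPM of each other. The log2 level was 4.77 ± 0.03 in the libraries labelled Zfx F5 and 3.63 ± 0.02 in WT (SD, n = 3 each). The log2 difference was 1.14 (SE 0.070), a 2.20-fold rise with a 95% interval of 1.99 to 2.43-fold and a limma adjusted p of 2.34e-15. The exact 2-sided permutation p was 0.1 for Cd274, as for Pvr, Ulbp1 and Cd47, and 0.1 is the smallest p that the 20 assignments of 3 and 3 libraries allow.

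Pdcd1lg2, whose product PD-L2 is the other ligand of PD-1, lies next to Cd274 on chromosome 19 (mm10 chr19:29410919-29471161, plus strand, against chr19:29367455-29388095, plus strand, for Cd274). It was listed at 0 reads in all 6 libraries, where 3 reads, the limit that a count of 0 allows, would be 0.124 to 0.159 CPM depending on the library. None of the 50-base windows of its transcripts was found in a transcript of another gene. The log2 difference between Cd274 and Pdcd1lg2 within a library was 9.58, 9.58 and 9.62 in the libraries labelled Zfx F5, against 8.45, 8.48 and 8.44 in WT (group difference 1.14, exact permutation p = 0.1). Since Pdcd1lg2 stood at the floor of the table throughout, this contrast carries the value of Cd274 alone. Read counts near 0 need care in this table, since genes that nearly all cells use are also almost empty: Gapdh had 2 to 10 reads and Rpl19 had 17 to 41 reads per library. In Gapdh 63.0% and in Rpl19 75.6% of 50-base windows matched another gene with at most 2 mismatches. In Actb 47.5% of windows did so, and Actb had 31013 to 44552 reads per library. What shared windows contribute to counts near 0 was not tested.

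The rise of Cd274 was not shared by its tested neighbours. Plgrkt, which encodes a plasminogen receptor, starts 65 bases from Cd274 on the opposite strand and is transcribed away from it. The short stretch between the annotated starts is shown because the genes on its sides gave different results. It is written on the plus strand of GRCm38.p6 at chr19:29367391-29367437, from RefSeq, and runs from the base after the start of Plgrkt to the base before the RefSeq start of Cd274.
Plgrkt-Cd274 interval: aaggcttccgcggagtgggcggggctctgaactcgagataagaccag
Its 47 bases hold 61.7% G and C. Plgrkt had 625, 611 and 645 reads in the libraries labelled Zfx F5, against 665, 532 and 726 reads in WT. Its log2 difference was 0.04 (SE 0.060, limma adjusted p = 0.609). Of 6 coding genes starting within 250 kb of Cd274, a distance chosen after the data had been seen, 4 were tested. Jak2 and Ric1 were lower (1.52-fold and 1.35-fold), while Plgrkt and Insl6 did not pass. Over all tested genes 37% were higher and 35.9% were lower. Of the 50-base windows of Cd274, 13.7% matched another gene's transcript with at most 2 mismatches, most of them the annotated antisense gene AC119228.1, which covers 14.1% of the exon bases and was not analysed here. The library kit named in the labels does not mark strand. If that kit was used, reads of Cd274 and of this antisense gene cannot be told apart there.

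**Figure D2:**
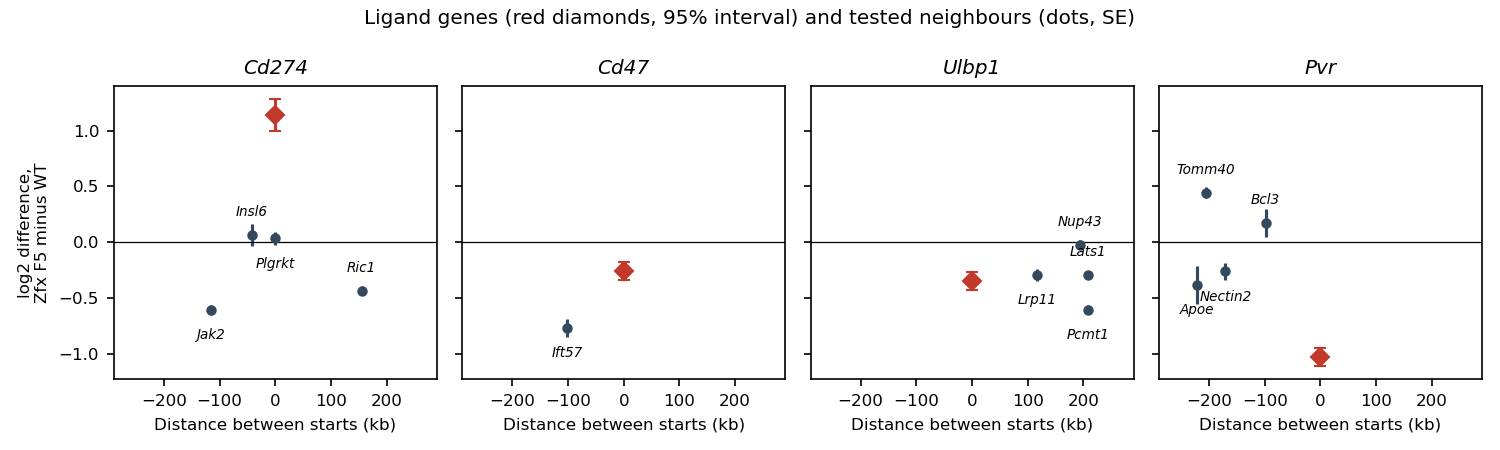
Log2 difference (Zfx F5 minus WT, vertical axis) of the 4 tested ligand genes (red diamonds, 95% interval) and of tested coding genes starting within 250 kb (dots, SE), by the distance between annotated starts in kb along the chromosome (horizontal axis). Beside Cd274 at 1.14, its neighbour Plgrkt stood at 0.04 and Jak2 at -0.61, and no tested neighbour fell as far as Pvr. Beside Ulbp1 at -0.35 Pcmt1 stood at -0.60, and beside Cd47 at -0.26 Ift57 stood at -0.77, so both neighbours fell further than the ligand gene.

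Genes that act on PD-L1 transcription or turnover went both ways. Of 22 such genes 21 were tested, and 5 were higher and 12 were lower (37% and 35.9% over all tested genes), while 4 did not pass. The median log2 difference of the 21 was -0.12, against 0.02 over all tested genes. Irf1, an activator of Cd274, rose 1.33-fold (210 ± 2.8 CPM in the libraries labelled Zfx F5 and 157 ± 5.9 CPM in WT, SD, n = 3 each). Among the other higher genes, Stat3 rose 1.25-fold, Nlrc5 1.13-fold and Spop 1.08-fold. Genes for the kinases and receptor chains of interferon gamma signalling were lower. Jak2 fell 1.52-fold and Jak1 1.25-fold, and the receptor chains Ifngr1 and Ifngr2 fell 1.13-fold and 1.14-fold. Cmtm4 fell 1.66-fold, with 193, 196 and 197 CPM in the libraries labelled Zfx F5, against 312, 330 and 331 CPM in WT. Its product and that of Cmtm6 keep PD-L1 protein at the membrane, and Cmtm6 fell 1.08-fold (limma adjusted p = 0.0341). Stt3a, which encodes a catalytic subunit of the enzyme that adds N-glycans, fell 1.14-fold, and the glycosyltransferase gene B3gnt3 did not pass. Adjusted p-values of Irf1, Stat3, Nlrc5, Spop, Jak1, Jak2, Ifngr1, Ifngr2, Cmtm4 and Stt3a were between 1.73e-18 and 0.00700 in limma.

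The interferon response elements known upstream of many such genes were searched for in the 250 bases before each annotated start, on both strands, in RefSeq promoters of GRCm38.p6. Of the 10 ligand genes, 8 matched the table, with 10 windows. The interferon-stimulated response element was taken as a pair of GAAA boxes with any 2 bases between them, the gamma-activated site as TTCNNNGAA and the core of the ZFX motif as AGGCCT. None of the 10 windows held any of these letters. Over 27025 promoters of the same length the shares with a match were 3.04%, 7.18% and 8.70% in that order. Absence of a match says only that these letters do not stand in these windows.

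The T cell ligands outside the 10 genes included wider differences than those of the 10 genes. Of 20 genes 5 were tested, and 1 was higher and 2 were lower (37% and 35.9% over all tested genes), while 2 did not pass. Lgals9 encodes galectin-9, a ligand of TIM-3. It had 777, 745 and 823 reads in the libraries labelled Zfx F5, against 35, 19 and 40 reads in WT, so pooled CPM was 26.0-fold higher (counting interval 21.2 to 32.3 at 95% confidence, limma adjusted p = 1.07e-17). Cd200, whose product restrains myeloid cells through CD200R, had 14, 6 and 6 reads in the libraries labelled Zfx F5, against 514, 454 and 605 reads in WT, 58.0-fold lower by pooled CPM (interval 39.4 to 89.0, limma adjusted p = 1.38e-09). Lgals3, which encodes galectin-3, a ligand of LAG-3, fell 1.10-fold (limma adjusted p = 0.000298). The costimulatory gene Tnfsf9, which encodes 4-1BB ligand, had a log2 difference of -0.08 (SE 0.093), and Tnfrsf14, which encodes HVEM, one of -0.31 (SE 0.28). The costimulatory genes Cd80 and Cd86 had at most 2 reads over a group. Cd48 was under the filter, with 9, 11 and 12 reads in the libraries labelled Zfx F5, against 0, 2 and 0 in WT. Its pooled CPM in the libraries labelled Zfx F5 was 16.7 times that in WT (counting interval 4.26 to 144). Btn2a2, a butyrophilin gene whose product inhibits T cells, fell under the filter with 45, 43 and 32 reads in the libraries labelled Zfx F5, against 17, 6 and 10 reads in WT. It passed the filter and was higher when any 1 WT library was left out, which made the count of higher genes 2. Btn1a1, the other butyrophilin gene of the list, was under the filter too, with 4, 6 and 6 reads in the libraries labelled Zfx F5, against 34, 26 and 37 reads in WT, and pooled CPM 0.172 times that in WT (counting interval 0.0947 to 0.294).

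Cd276 (mm10 chr9:58524298-58555437, minus strand) carried few reads, with 4, 5 and 1 in the libraries labelled Zfx F5, against 12, 8 and 8 in WT. The groups did not overlap, but each library was near the floor, and the gene was under the filter. Pooled CPM in the libraries labelled Zfx F5 was 0.373 times that in WT (exact counting interval 0.162 to 0.791). In the fit without a filter on low values its log2 difference was -1.39 (SE 0.50, limma adjusted p = 0.0147). Of its exon bases 11.4% overlap the opposite-strand gene model Gm10657, which was listed at 0 reads in all 6 libraries.

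CD155 is a member of the nectin family that NK cells and T cells meet through DNAM-1 as an activating signal and through TIGIT and CD96 as an inhibitory one. Pvr (mm10 chr7:19903578-19921160, minus strand, ENSMUSG00000040511) had 1457, 1320 and 1593 reads in the libraries labelled Zfx F5, against 3312, 2633 and 3326 reads in WT. All 3 libraries labelled Zfx F5 lay below all 3 WT libraries, with 68.8, 66.8 and 70.0 CPM, against 142, 139 and 137 CPM in WT. The log2 level was 6.10 ± 0.03 in the libraries labelled Zfx F5 and 7.12 ± 0.02 in WT (SD, n = 3 each). Pvr fell by 1.03 on the log2 scale (SE 0.039), which is 2.04-fold (95% interval 1.92 to 2.15-fold), with a limma adjusted p of 1.95e-20. None of its 50-base windows matched another gene, even with 2 mismatches allowed.

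The other nectins that were tested fell as well, by less. Nectin2, which encodes CD112, the other ligand of DNAM-1, had 528, 389 and 534 reads in the libraries labelled Zfx F5, against 638, 513 and 648 reads in WT. These counts overlap, but as levels they were 24.9, 19.7 and 23.5 CPM in the libraries labelled Zfx F5, against 27.3, 27.2 and 26.7 CPM in WT, and did not. Nectin2 fell by 0.26 on the log2 scale (SE 0.073, limma adjusted p = 0.00208). Without the library labelled Zfx F5 replicate 2, the lowest, its log2 difference was -0.16 and the adjusted p 0.0404 in limma. Nectin1 fell 1.82-fold (limma adjusted p = 1.21e-09) and Nectin3, whose product binds CD155 between cells, fell 1.27-fold (limma adjusted p = 3.27e-08). Of 8 nectins and nectin-like genes 3 were tested, and all 3 were lower, where 35.9% of all tested genes were lower. The receptors themselves were not tested, since none of 16 receptor genes of lymphocytes and phagocytes passed the filter. Tigit had 9, 6 and 4 reads in the libraries labelled Zfx F5, against 37, 18 and 18 reads in WT, and Havcr2, which encodes TIM-3, had 12, 6 and 4 reads in the libraries labelled Zfx F5, against 2, 1 and 2 in WT. Within 250 kb of the start of Pvr, 4 of 20 coding genes were tested. Nectin2 lay among the 2 that were lower, Tomm40 was higher (1.36-fold) and Bcl3 did not pass (37% higher and 35.9% lower over all tested genes).

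NKG2D ligands are distant relatives of class I molecules that stressed or transformed cells display, and cells shed them by proteolysis. Ulbp1 (mm10 chr10:7440362-7473638, minus strand, ENSMUSG00000079685), the gene of MULT1, had 1855, 1742 and 1990 reads in the libraries labelled Zfx F5, against 2566, 2036 and 2835 reads in WT. As levels these were 87.5, 88.2 and 87.5 CPM in the libraries labelled Zfx F5, against 110, 108 and 117 CPM in WT, so the groups did not overlap and WT varied more. Ulbp1 fell by 0.35 on the log2 scale (SE 0.040), or 1.27-fold (95% interval 1.20 to 1.35-fold, limma adjusted p = 5.78e-09). Of its windows 6.29% matched another gene with at most 2 mismatches, mostly the pseudogene Gm16531. All 4 coding genes starting within 250 kb of Ulbp1 were tested, and 3 were lower, where 35.9% of all tested genes were lower. Pcmt1 fell 1.52-fold, more than Ulbp1, Lrp11 and Lats1 each fell 1.22-fold, and Nup43 did not pass.

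Raet1d and Raet1e added almost no reads to this family. Raet1e had 14, 5 and 7 reads in the libraries labelled Zfx F5, against 12, 13 and 7 in WT, and Raet1d had 1, 0 and 0 in the libraries labelled Zfx F5, against 0, 1 and 0 in WT. On mm10 the annotated span of Raet1e (chr10:22158569-22374139, plus strand) contains that of Raet1d (chr10:22360552-22374139, plus strand). The groups overlapped for both genes. For Raet1e pooled CPM in the libraries labelled Zfx F5 was 0.848 times that in WT, with a counting interval of 0.485 to 1.47, which includes both no difference and the ratio seen for Ulbp1. These genes are near copies of each other, so how reads were shared between them is uncertain. With at most 2 mismatches, 82.2% of the 50-base windows of Raet1d and 71.2% of those of Raet1e were found in another gene. The stretches below show what a 50-base read can and cannot separate. The coding sequences share an exact run of 165 bases, at 290 to 454 of 747 in Raet1d and at 296 to 460 of 753 in Raet1e (GENCODE M21 transcripts of mm10, plus strand), whose first 60 bases are the same in both genes.
Raet1d and Raet1e, shared: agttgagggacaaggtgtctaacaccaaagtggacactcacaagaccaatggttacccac
In the 60 bases that differ most after that run, the genes differ at 10 bases, set in capitals, at 511 to 570 in Raet1d and 517 to 576 in Raet1e.
Raet1d: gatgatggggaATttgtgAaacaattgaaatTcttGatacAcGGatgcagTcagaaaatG
Raet1e: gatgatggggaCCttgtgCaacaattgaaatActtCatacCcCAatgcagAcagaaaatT
A read from the shared run fits both genes, while a read from this second stretch carries several differences.

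**Figure D3:**
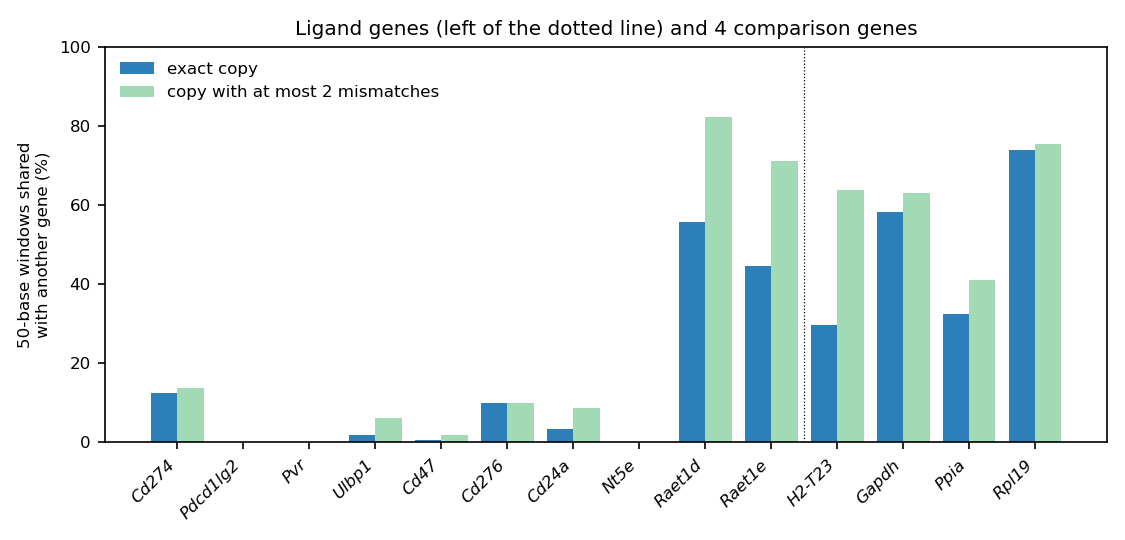
Share of 50-base windows (vertical axis, %) in the annotated transcripts of each ligand gene and of H2-T23, Gapdh, Ppia and Rpl19 that also occur in a transcript of another gene, exactly (blue) or with at most 2 mismatches (green). Raet1d (82.2%) and Raet1e (71.2%) share most windows, Cd274 13.7%, and Pdcd1lg2, Pvr and Nt5e none.

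Because reads of near copies can move between them, the family was also summed. Its 5 genes in the table came to 88.2, 88.4 and 87.8 CPM in the libraries labelled Zfx F5, against 110, 109 and 117 CPM in WT, a difference of -23.9 CPM (exact permutation p = 0.1). Ulbp1 held 13024 of the 13084 reads (99.5%), so the sum restates Ulbp1. H60b and H60c were listed at 0 reads, and Raet1a, Raet1b, Raet1c and H60a were not analysed here. Without Ulbp1 the sum was 0.708, 0.253 and 0.308 CPM in the libraries labelled Zfx F5, against 0.514, 0.742 and 0.289 CPM in WT (exact permutation p = 0.6).

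Genes for the shedding and turnover of NKG2D ligands split evenly, with 3 of 6 tested genes higher and 3 lower (37% and 35.9% over all tested genes). Timp3, which encodes an inhibitor of ADAM and matrix metalloproteases, rose 10.4-fold, with 3353, 3064 and 3482 reads in the libraries labelled Zfx F5, against 332, 281 and 375 reads in WT (limma adjusted p = 4.30e-31). Among the proteases that cut NKG2D ligands in human cells, Mmp14 fell 1.48-fold and Adam10 1.30-fold, while Adam17 rose 1.19-fold. March9, which encodes a membrane ubiquitin ligase known to act on MULT1, fell 2.70-fold, with 238, 215 and 271 reads in the libraries labelled Zfx F5, against 780, 572 and 694 reads in WT (limma adjusted p = 3.59e-17).

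Ligands of the remaining NK receptors went both ways. Of 10 such genes 4 were tested, with 2 higher and 2 lower (37% and 35.9% over all tested genes). Clec2d, which encodes the ligand of the inhibitory receptor NKR-P1B, rose 1.63-fold (4.25 ± 0.28 CPM in the libraries labelled Zfx F5 and 2.60 ± 0.14 CPM in WT, SD, n = 3 each, limma adjusted p = 0.000125). H2-K1, a classical class I chain, rose 1.12-fold (limma adjusted p = 1.84e-05), and H2-D1 and B2m, the light chain of class I, each fell 1.06-fold (limma adjusted p = 0.0266 and 0.00366). The fall of H2-D1 did not pass without the library labelled Zfx F5 replicate 2, WT replicate 1 or WT replicate 2 (limma adjusted p = 0.186, 0.0920 and 0.153), which left 1 lower gene. Both falls were lost with median centring and without trend and robust moderation. H2-T23, which encodes Qa-1, had 15 reads in all in the libraries labelled Zfx F5 and 16 in WT, and 63.9% of its windows matched another gene.

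CD47 tells phagocytes not to engulf the cell by binding SIRP alpha. Cd47 (mm10 chr16:49800533-49915010, plus strand, ENSMUSG00000055447) had 2098, 1941 and 2161 reads in the libraries labelled Zfx F5, against 2738, 2162 and 2859 reads in WT. In CPM these were 99.0, 98.2 and 94.99 in the libraries labelled Zfx F5, against 117, 115 and 118 in WT, and the groups did not overlap. Cd47 fell by 0.26 on the log2 scale (SE 0.038), or 1.20-fold (95% interval 1.13 to 1.26-fold, limma adjusted p = 5.12e-07). It is the smallest of the 4 differences, and 57.5% of all tested genes differed by at least as much. The only coding gene starting within 250 kb of the GENCODE start of Cd47, Ift57, was tested and fell further, by 1.70-fold (limma adjusted p = 3.46e-10). The RefSeq promoter windows of Cd47 end farther along the plus strand, at 49855653 and 49855660, and neighbours were not counted from there. Cd24a (mm10 chr10:43578284-43584265, plus strand), whose product binds Siglec-G, was listed at 0 reads in all 6 libraries, and 8.77% of its windows matched other genes with at most 2 mismatches, mostly the processed pseudogene Gm6212.

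Of 17 genes around CD47, CD24 and the uptake of dying cells 15 were tested. Of these 7 were higher and 6 were lower (37% and 35.9% over all tested genes), while 2 did not pass. Thbs1, which encodes thrombospondin-1, a secreted ligand of CD47, fell 4.99-fold, with 71, 95 and 82 reads in the libraries labelled Zfx F5, against 436, 389 and 464 reads in WT (limma adjusted p = 8.88e-17). Lrp1, the receptor that reads calreticulin on dying cells, rose 3.19-fold (limma adjusted p = 0.000407), with 160, 195 and 213 CPM in the libraries labelled Zfx F5, against 53.1, 66.7 and 57.4 CPM in WT. Calr, calreticulin itself, rose 1.70-fold (limma adjusted p = 8.60e-21). Qpctl, whose enzyme finishes the SIRP alpha binding end of CD47, rose 1.39-fold (limma adjusted p = 1.26e-06). Siglecs read sialic acid, and of the sialyltransferase genes St6gal1 fell 3.29-fold, St3gal1 fell 2.87-fold and St3gal4 rose 1.20-fold (limma adjusted p between 1.28e-25 and 3.84e-07).

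Nt5e (mm10 chr9:88327197-88372092, plus strand) was listed at 0 reads in all 6 libraries, and none of its 50-base windows matched another gene. CD73 turns AMP into adenosine, which inhibits T and NK cells through its own receptors. Entpd1, which encodes CD39, the enzyme one step before it, had 1 read over each group. Of 17 adenosine pathway genes 8 were tested. Of these 3 were higher and 3 were lower (37% and 35.9% over all tested genes), while 2 did not pass. Ada, which breaks adenosine down, fell 3.09-fold, with 83, 79 and 92 reads in the libraries labelled Zfx F5, against 325, 216 and 291 reads in WT (limma adjusted p = 2.31e-14). Cd38, which starts another route to adenosine, fell 2.45-fold (38, 39 and 38 reads in the libraries labelled Zfx F5, against 94, 92 and 111 in WT, limma adjusted p = 3.17e-08). Adora2b, an adenosine receptor gene, rose 2.05-fold (109, 85 and 85 reads in the libraries labelled Zfx F5, against 55, 43 and 42 in WT, limma adjusted p = 2.75e-06).

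**Figure D4:**
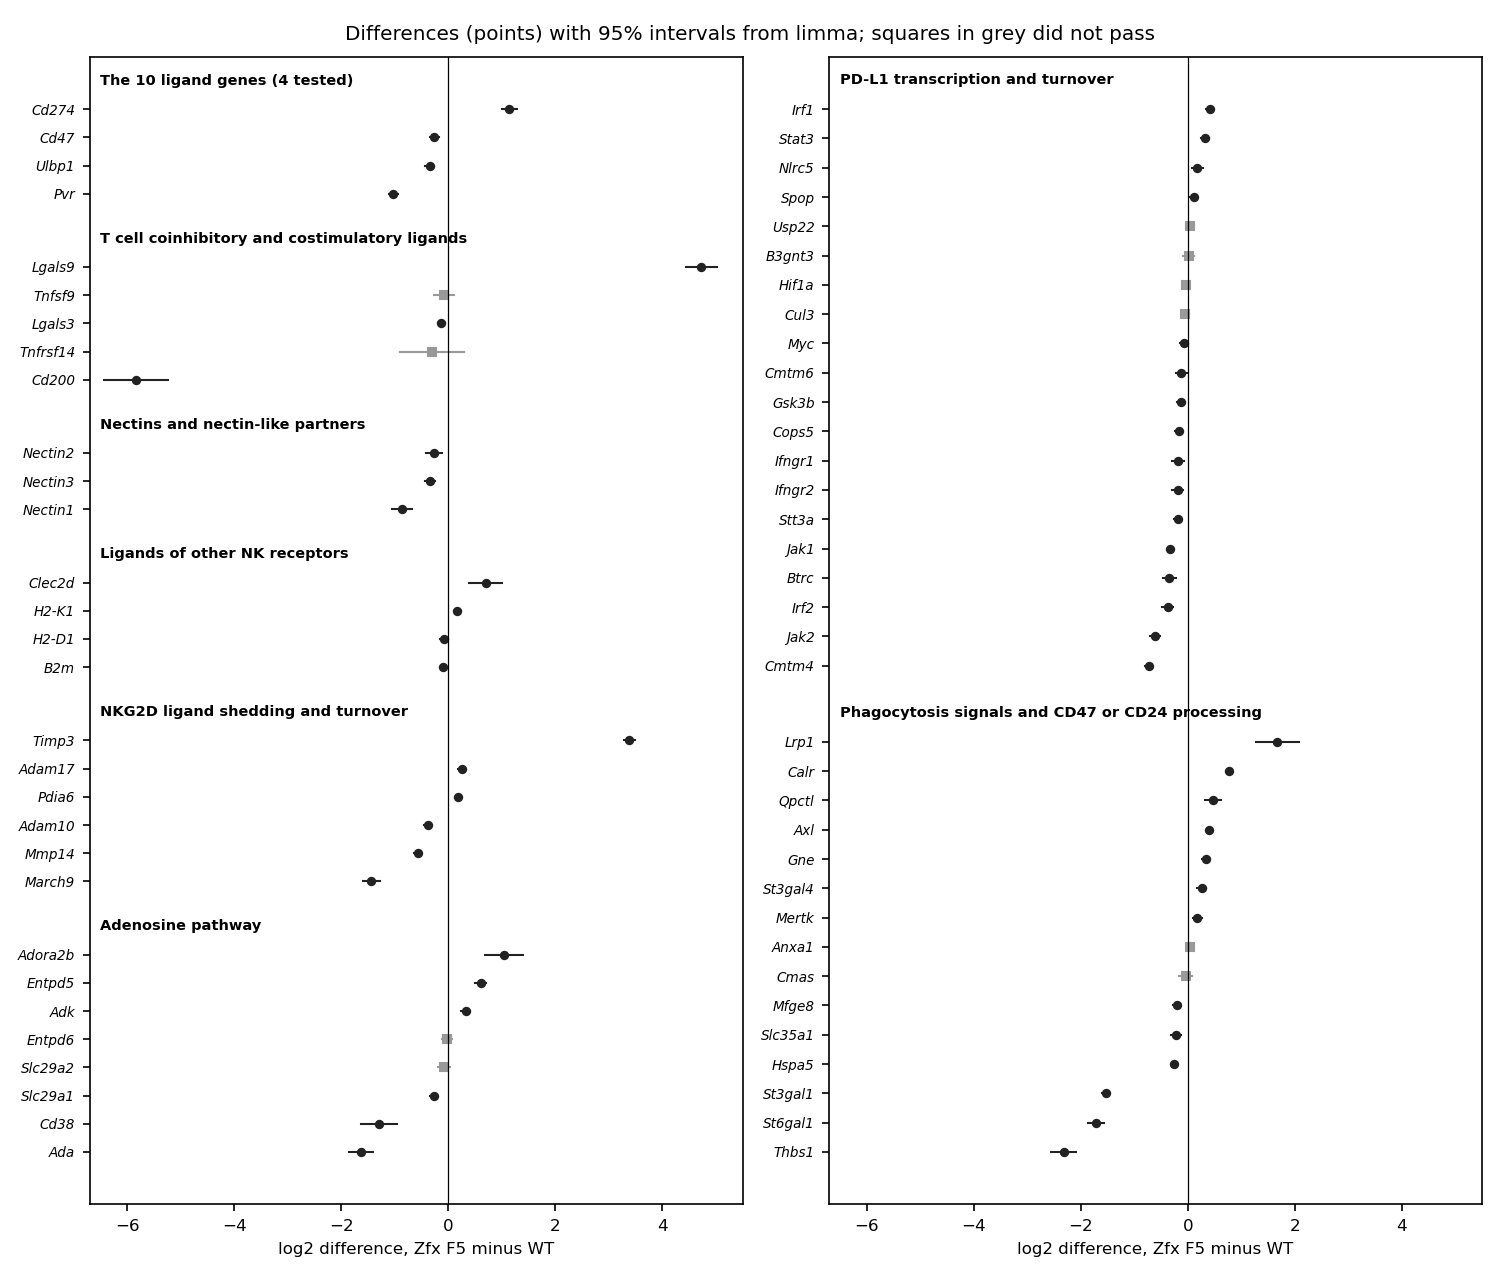
Log2 difference (Zfx F5 minus WT, horizontal axis) with its 95% interval from limma for the 4 tested ligand genes and the tested genes of the surrounding pathways, in named blocks, with 1 gene of the PD-L1 block not shown. Black points passed the adjusted threshold and grey squares did not. All 3 tested nectins lie left of 0, Lgals9 (4.73) and Timp3 (3.39) lie farthest right and Cd200 (-5.84) farthest left.

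Set against each other per length of gene as deposited, the 7 ligand genes with any read kept the same order in both groups. That length is 2905 bases for Pvr and 5277 for Cd47, where GENCODE M21 holds 6122 and 6276 exon bases. A longer length gives Pvr a lower level per kilobase, so the order is given for the deposited lengths only. In CPM per kilobase the level of Pvr was 23.6 ± 0.56 in the libraries labelled Zfx F5 and 48.0 ± 0.78 in WT (SD, n = 3 each, as for the levels that follow). Cd47 stood at 18.5 ± 0.40 in the libraries labelled Zfx F5 and 22.1 ± 0.34 in WT, and Ulbp1 at 13.0 ± 0.056 in the libraries labelled Zfx F5 and 16.6 ± 0.71 in WT. These 3 genes lay closer together in the libraries labelled Zfx F5 than in WT. Cd274 followed with 7.52 ± 0.14 in the libraries labelled Zfx F5 and 3.41 ± 0.046 in WT. Raet1e stood at 0.208 ± 0.11 in the libraries labelled Zfx F5 and 0.254 ± 0.10 in WT, and Cd276 at 0.0449 ± 0.030 in the libraries labelled Zfx F5 and 0.117 ± 0.025 in WT. Raet1d was last, at 0.0109 ± 0.019 in the libraries labelled Zfx F5 and 0.0123 ± 0.021 in WT. Neighbours in this order did not overlap, apart from Cd276 and Raet1d in the libraries labelled Zfx F5.

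For the ligand gene that rose and the one that fell most, the genes with the most similar pattern over the 6 libraries were looked up, by the Euclidean distance between log2 values centred on each gene's mean. For Cd274 they were Plod1, a collagen lysyl hydroxylase gene, Pnpla6, a phospholipase gene, and Arl4c, a small GTPase gene, at distances of 0.0575, 0.0754 and 0.0796 log2 units. For Pvr they were Zfp512b, a zinc finger gene, Ncs1, a calcium sensor gene, and Bcl7a, a chromatin remodelling subunit gene, at 0.0386, 0.0462 and 0.0484. The median distance over 12275 other genes was 1.40 from Cd274 and 1.32 from Pvr. With 2 groups of 3 libraries this measure mostly reflects the size of the group difference.

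Each of the 4 tested ligand genes kept its direction and stayed past the threshold under all 16 alternative settings. Over these settings the log2 difference ranged over 0.89 to 1.17 for Cd274, over -1.06 to -0.95 for Pvr, over -0.38 to -0.26 for Ulbp1 and over -0.29 to -0.17 for Cd47.

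**Figure D5:**
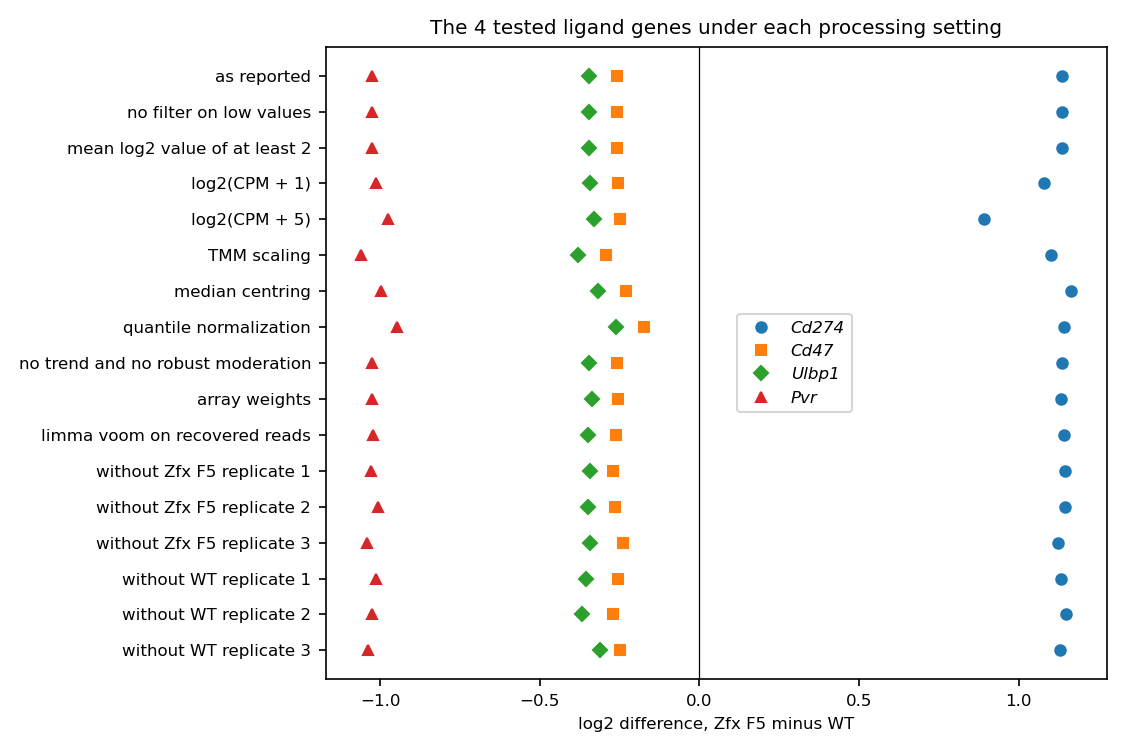
Log2 difference (Zfx F5 minus WT, horizontal axis) of Cd274, Cd47, Ulbp1 and Pvr as reported (top row) and under each of 16 alternatives (rows below). Cd274 stays between 0.89 and 1.17 and the other genes stay below 0 throughout.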

How the data were processed

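The authors deposited log2 values of 52636 genes in 6 libraries. After the lowest value (-4.82) was undone and subtracted, each column summed to 1000000, so the deposited log2 values are log2(CPM + 0.0353). Whole reads were recovered: up to 300 reads, 100% of values were whole within 0.05 read. Per the labels' protocols, reads were single-end with 50 bases from a kit without strand marks. Per the submitters' processing notes, the builds are mm10 and GRCh38; the aligner and counter are not named in those notes.

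A count of 0 allows 3 reads. Counting intervals are 95%, exact (Clopper-Pearson), and cover counting error only. Genes with a mean log2 value of at least 0 (12279) were fitted with limma 3.58.1 in R 4.3.3 (trend, robust, 2-sided, Benjamini-Hochberg at 0.05); it was tested on simulated data. Fold changes are on the log2(CPM + 0.0353) scale and understate low genes. Windows of 50 bases were matched to GENCODE M21 transcripts with bwa 0.7.19. From each list, up to 3 genes with the largest differences past the threshold were named, or the 2 of highest mean CPM over all libraries where none passed; every other listed gene and the neighbours were named after their values had been seen. The ligand genes and lists were chosen with earlier results of these data known. Of the symbols, 27 had been turned into dates, and March4 and March9 were restored by gene ID. Of the genes acting on PD-L1, 1 named by this rule is counted but not reported here.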

Additional observations from a re-analysis of the deposited data

How the results depend on the processing

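All 64 values of the 4 ligand genes kept their direction and their call under the alternatives, which were other filters, pseudocounts and scalings, no trend and no robust moderation, array weights, limma voom on recovered reads, and leaving out each library. With 1 library left out, the log2 difference was 1.12 to 1.15 for Cd274, -1.04 to -1.01 for Pvr, -0.37 to -0.31 for Ulbp1 and -0.27 to -0.24 for Cd47. The contrast of Cd274 with Pdcd1lg2 was 1.08 with 1 CPM added and 0.89 with 5 CPM added, which shrinks low values by construction, and 1.12 to 1.15 with 1 library left out. The NKG2D ligand sum differed by -0.0918 CPM without Ulbp1, and by -25.6 to -21.3 CPM with 1 library left out.

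The number of genes past the threshold was 8953 and ranged over 8078 to 10017, and over 8542 to 8748 with 1 library left out. Higher genes (4546) outnumbered lower ones (4407), but not with TMM scaling (4195 higher, 4697 lower) or with the filter raised to 2 (4036 higher, 4042 lower). Of the values of other genes named by the rule 424 kept their call. The 2 that did not were those of B2m with median centring (limma adjusted p = 0.0508) and without trend and robust moderation (0.0699). H2-D1, named after its values had been seen and not among these, lost its call with the same settings and without 3 of the 6 libraries. Of the list counts 367 stayed within 1.5 times and 17 did not, mostly where a list had 1 or 2 called genes. The lower count of myeloid and B cell markers was 1 in place of 0 without WT replicate 3, where Cd14 passed.

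No paired analysis was possible because replicate numbers were given in accession order and pair no libraries. At this depth a count of 0 allows a level of up to 0.124 to 0.159 CPM, depending on the library. This bears on Raet1d and on the genes listed at 0 reads. Cd276 had reads in every library, but only 1 read in the library labelled Zfx F5 replicate 3.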
